A study of Mus musculus with 32 samples.

Results

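Expression of 10 genes of the RGS family, the regulators of G protein signalling, was described in 32 whole bladders of female C57BL/6 mice by bulk RNA sequencing. The members were Rgs1, Rgs2, Rgs3, Rgs4, Rgs5, Rgs10, Rgs13, Rgs16, Rgs18 and Rgs19, matched by Ensembl identifier among the 32285 genes of the count table. Rgs2 was picked for the fall of its level at 26 months of age with little change before that. Its values in young, middle-aged and untreated old bladders are therefore a description and carry no test. The other 9 members were taken for contrast, among them Rgs1 and Rgs13, which are known from lymphocytes.

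The study asked how the bladder changes with age and whether removal of senescent cells by drugs alters the old bladder. Young mice were 2 months of age (n = 6), middle-aged mice 10 months (n = 5) and untreated old mice 26 months (n = 6), and none of these were gavaged. A further 3 groups of old mice were gavaged on 3 days of each month from 21 to 26 months of age. They received water (n = 5), the vehicle of Phosal 50 PG, PEG 400 and ethanol (n = 4), or D + Q in that vehicle, which is dasatinib at 5 mg/kg per day with quercetin at 50 mg/kg per day (n = 6). Each library came from 1 bladder of 1 mouse. Levels are given as CPM, counts divided by the library total and scaled by TMM factors, and between genes as TPM, which also divides by exon length.

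RGS proteins bind the active, GTP-bound alpha subunit of a heterotrimeric G protein and speed up GTP hydrolysis, which ends the signal of the receptor upstream. RGS2 acts mainly on Gq, the G protein through which muscarinic, purinergic and other receptors contract smooth muscle, and it is a substrate of the cGMP-dependent protein kinase in vascular smooth muscle. Most members here belong to the R4 subfamily of small proteins with little beyond the RGS domain. RGS10 belongs to the R12 and RGS19 to the RZ subfamily.

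Of the 10 members, 7 lay on chromosome 1 (mm10). Rgs2, Rgs13, Rgs1 and Rgs18 followed each other on the minus strand within 776 kb, and no annotated gene lay between Rgs2 and Rgs13 or between Rgs13 and Rgs1. Rgs5 and Rgs4 stood 45.7 kb apart on opposite strands with no gene between them. The gene Rgs2 (ENSMUSG00000026360) spans chr1:143999338-144004161 on the minus strand, with 3627 exonic bases in the count table. The sequence before its start is shown because the results turn on the level of this gene. It is 238 bases of the RefSeq promoter window, chr1:144004162-144004399 of GRCm38.p6, read 5′ to 3′ on the minus strand, and capitals mark matches to the GC box GGGCGG on the opposite strand:

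Rgs2 upstream: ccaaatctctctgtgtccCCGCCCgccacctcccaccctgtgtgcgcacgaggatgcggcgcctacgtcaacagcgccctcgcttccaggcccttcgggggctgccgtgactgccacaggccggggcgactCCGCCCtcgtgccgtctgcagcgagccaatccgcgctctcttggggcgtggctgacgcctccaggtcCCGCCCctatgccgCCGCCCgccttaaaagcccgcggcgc

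The 4 matches did not overlap one another and ended at bases -227, -114, -47 and -33 from the RefSeq start. Of the 10 members, 8 had a promoter in the RefSeq table, and Rgs1 and Rgs18 did not. Windows of the same length held a GC box on either strand in 31.0% of 32851 promoters and, among the members, in Rgs2, Rgs3, Rgs10, Rgs16 and Rgs19. The TATA box TATAAA was found for Rgs3 and Rgs4 and in 12.0% of promoters. The cAMP response element TGACGTCA, the AP-1 motif TGAGTCA and the TEAD motif GGAATG were in no member's window and in 1.42%, 4.3% and 12.1% of all promoters. All were searched on both strands, and a match is only a run of letters.

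Libraries held 15088372 to 52650259 counts over genes, and no 2 count columns were identical. Young bladder 3 had the lowest total. Markers of smooth muscle, urothelium, fibroblasts and endothelium were above 3 counts in every group. In untreated old against middle-aged bladders, 7 of 8 B cell, 8 of 8 T cell, 6 of 7 plasma cell and 7 of 8 macrophage markers were higher by edgeR (adjusted p under 0.05) and none were lower, where 24.0% of all genes were called and 13.0% were higher. In whole tissue, fewer cells of a type and less RNA per cell cannot be told apart.

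Compared per length, Rgs5, a marker of pericytes, had the highest level of the family (258 TPM on average over 32 bladders) and Rgs2 the next (212 TPM). Rgs5 was above Rgs2 in 23 of 32 bladders, so the ranges of these 2 genes overlapped. By group, Rgs2 had the higher mean in young (312 against 261 TPM) and middle-aged bladders (312 against 278 TPM), and Rgs5 in each of the 4 old groups. Rgs10 (33.9 TPM) and Rgs19 (27.8 TPM) came next, followed by Rgs4 (17.3 TPM) and Rgs3 (11.4 TPM). Rgs16 (3.30 TPM) and Rgs18 (3.27 TPM), a gene known from platelets, could not be ordered, since Rgs16 was the higher in 14 of 32 bladders. Rgs1 averaged 2.68 TPM and Rgs13 0.187 TPM. The exon length of Rgs1, 6947 bases, equals the full span of the gene, and a long length lowers TPM. The place of Rgs1 below Rgs16 and Rgs18 therefore depends on that length. Without division by length, Rgs1 averaged 7.79 CPM in untreated old bladders, against 2.53 CPM for Rgs16 and 2.18 CPM for Rgs18.

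Rgs2 stood at about the same level in young and middle-aged bladders and lower in all 4 old groups. In young bladders the lowest, median and highest levels of Rgs2 were 180, 350 and 424 CPM. In the 5 middle-aged bladders they were 299, 297, 408, 242 and 365 CPM. Untreated old bladders had 120 CPM at the lowest, 145 at the median and 178 at the highest, so that they did not overlap either younger group. Group means were 321 ± 94.1 CPM in young (SD, n = 6), 322 ± 65.0 CPM in middle-aged (n = 5) and 149 ± 24.0 CPM in untreated old bladders (n = 6). On the log2 scale, untreated old minus middle-aged was -1.09 with a standard error of 0.14. These are the values by which the gene was picked, so no test is attached to them.

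The gavaged old bladders were not used to pick Rgs2, although they are set here against the same 5 middle-aged bladders. Water-treated bladders had 254, 230, 204, 153 and 106 CPM of Rgs2. Vehicle-treated bladders had 117, 203, 201 and 145 CPM. D + Q-treated bladders ranged from 80.2 through a median of 181 to 273 CPM. The vehicle-treated bladders were all below the middle-aged range, and 1 water-treated and 1 D + Q-treated bladder reached into it. Below the lowest middle-aged bladder lay 4 of 5 water-treated, 4 of 4 vehicle-treated and 5 of 6 D + Q-treated bladders, as did 2 of 6 young bladders. The plot of Rgs2 by bladder shows this spread.

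**Figure D1:**
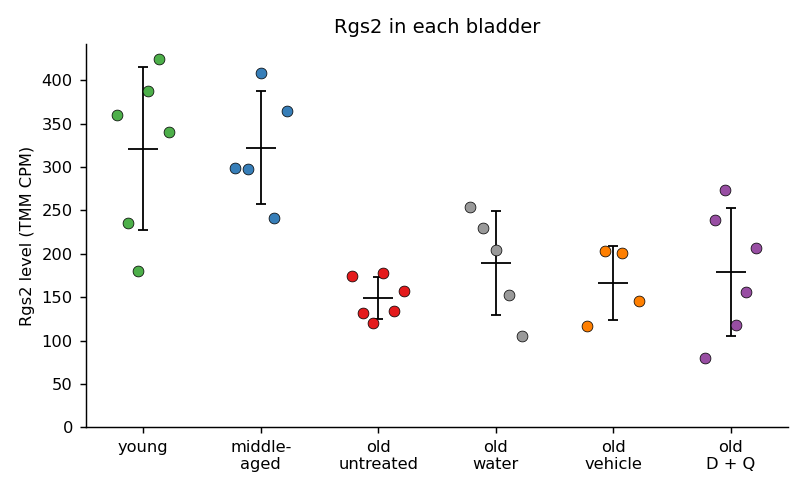
Level of Rgs2 in TMM-scaled CPM (vertical axis, from 0) in each of 32 bladders by group; points are bladders, horizontal marks group means and bars the SD. Untreated old bladders sit between 120 and 178 CPM, below every young and middle-aged bladder, and D + Q-treated bladders spread from 80.2 to 273 CPM.

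The high level of the middle-aged bladders was part of the contrast that picked Rgs2, so the p-values against them are not independent of the pick and may be too small. By edgeR's quasi-likelihood test over all genes, Rgs2 fell in water-treated against middle-aged bladders by 0.76 on the log2 scale (SE 0.22, adjusted p = 0.0365). In vehicle-treated bladders it fell by 0.93 (SE 0.19, adjusted p = 0.0269). In D + Q-treated bladders the difference was -0.84 (SE 0.26) and missed the threshold in this edgeR fit (adjusted p = 0.0509), but passed with DESeq2 (adjusted p = 0.0349) and in edgeR without a filter (0.0413), with at least 10 counts in every bladder (0.0462) and with all 6 groups (0.0428). The call in water-treated bladders was lost without middle-aged bladder 1, 2, 3 or 5 or water-treated bladder 3 or 4, with edgeR adjusted p between 0.0507 and 0.0923, and in a fit of all 6 groups (adjusted p = 0.064). The call in vehicle-treated bladders was lost without middle-aged bladder 1, 2, 3 or 5 or vehicle-treated bladder 4 (edgeR adjusted p 0.0582 to 0.0737). The difference in D + Q-treated bladders passed without middle-aged bladder 4 or D + Q-treated bladder 2 or 3 (edgeR adjusted p 0.0229 to 0.0481). Without 1 bladder, the difference kept its sign throughout and stayed between -0.61 and -0.89 in water-treated, -0.80 and -1.04 in vehicle-treated and -0.69 and -0.999 in D + Q-treated bladders.

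Among old bladders, no difference in Rgs2 by treatment was resolved. The low level of the untreated old bladders was part of the contrast that picked Rgs2. Differences from them may therefore lean upward, and their p-values and interval are not independent of the pick. Against untreated old bladders, Rgs2 differed by 0.33 on the log2 scale in water-treated (edgeR adjusted p = 0.439), by 0.15 in vehicle-treated (edgeR adjusted p = 0.806) and by 0.26 in D + Q-treated bladders (edgeR adjusted p = 0.65). The 95% interval of the last ran from -0.26 to 0.78. D + Q-treated minus vehicle-treated bladders gave 0.10, with an interval of -0.56 to 0.77 (edgeR adjusted p = 0.999). D + Q-treated minus water-treated bladders gave -0.07, with an interval of -0.72 to 0.58 (edgeR adjusted p = 0.972).

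The lymphoid member Rgs1, a regulator of chemokine receptor signalling in lymphocytes, was higher in untreated old bladders. The middle-aged bladders had 5.73, 1.27, 1.80, 4.21 and 3.97 CPM of Rgs1, and untreated old bladders ranged from 5.82 through a median of 8.10 to 10.0 CPM. These groups did not overlap, but young bladders ranged from 1.37 to 13.9 CPM and so covered both. Rgs1 rose by 1.22 on the log2 scale in untreated old against middle-aged bladders (SE 0.31, edgeR adjusted p = 0.0129), and this missed the threshold in a fit of all 6 groups (adjusted p = 0.138). In the gavaged groups Rgs1 averaged 4.99 ± 2.83 CPM with water (SD, n = 5), 4.98 ± 2.98 CPM with vehicle (n = 4) and 4.88 ± 2.99 CPM with D + Q (n = 6). Each of these overlapped the middle-aged bladders, with edgeR adjusted p of 0.443, 0.53 and 0.516.

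Rgs13, a germinal centre B cell gene, was barely detected and was too low for the edgeR test. The 6 young bladders held 1 count of it in all and the 5 middle-aged bladders 2, with no bladder of either group above 1 count. Untreated old bladders held 21 counts, 11 of them in bladder 1 and none in 2 others. Water-treated bladders held 41 counts in all, of which 24 were in bladder 2. Vehicle-treated bladders held 14 and D + Q-treated bladders 26. Two-sided exact permutation tests of the 4 old groups against middle-aged bladders on log2(CPM + 0.1) gave unadjusted p from 0.0476 in D + Q-treated to 0.333 in vehicle-treated bladders, with no correction for the 4 comparisons. DESeq2, run without the filter on low counts, called Rgs13 higher in water-treated and D + Q-treated bladders. The summed level of the 8 B cell markers was 7.40 to 16.8 TPM in middle-aged and 97.5 to 295 TPM in untreated old bladders, and the 6 germinal centre markers summed to 55.3 to 62.9 and 68.6 to 94.0 TPM. The B cell sum was 4.07 to 9.68 TPM in young bladders, where Rgs1 reached its highest level. It was 57.8 to 474.5 TPM in water-treated, 63.7 to 470 TPM in vehicle-treated and 39.0 to 180 TPM in D + Q-treated bladders, where Rgs1 overlapped the middle-aged range. The part of lymphocytes in the levels of Rgs1 and Rgs13 was not tested.

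Rgs10, an R12 member found in microglia, macrophages and lymphocytes, was higher in untreated, water-treated and D + Q-treated old than in middle-aged bladders. Middle-aged bladders had 13.6, 13.8, 14.3, 15.0 and 13.1 CPM of Rgs10, and untreated old bladders 15.5 CPM at the lowest, 17.5 at the median and 19.0 at the highest. The groups did not overlap, and young bladders spanned 13.6 to 21.7 CPM. The rise was 0.34 on the log2 scale (SE 0.07, edgeR adjusted p = 0.0026). It was 0.36 in water-treated (edgeR adjusted p = 0.00249) and 0.30 in D + Q-treated bladders (edgeR adjusted p = 0.00348), both without overlap. In a fit of all 6 groups the D + Q-treated difference missed the threshold (adjusted p = 0.0565). In vehicle-treated bladders the difference was 0.45 (SE 0.12, edgeR adjusted p = 0.0661). Rgs10 shares bases with Gm15503 on the same strand.

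Rgs19, an RZ member that acts on the Gi class, showed 14.0, 13.9, 16.0, 16.9 and 15.0 CPM in middle-aged bladders. Untreated old bladders had 17.3, 18.5 and 20.1 CPM as lowest, median and highest. Rgs19 therefore did not overlap between these groups, and it rose by 0.32 (SE 0.06, edgeR adjusted p = 0.00247). In water-treated bladders Rgs19 rose by 0.42 (SE 0.09, edgeR adjusted p = 0.00887). In vehicle-treated bladders the difference from middle-aged was 0.34 and in D + Q-treated bladders 0.16 (edgeR adjusted p of 0.11 and 0.109). D + Q-treated bladders held the narrowest range, 16.3 to 17.8 CPM. Their difference from the untreated old group was -0.15 (SE 0.05), with an unadjusted p of 0.0061 and an edgeR adjusted p of 0.285, and from water-treated bladders -0.26 (SE 0.07, unadjusted p = 0.00429, edgeR adjusted p = 0.425).

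Rgs16, an R4 member known from lymphocytes and retina, had 1.34, 1.37, 1.63, 1.81 and 1.74 CPM in middle-aged bladders and 1.96, 2.51 and 3.03 CPM as lowest, median and highest in untreated old bladders. The groups did not overlap, and the rise was 0.70 on the log2 scale (SE 0.13, edgeR adjusted p = 0.0022). In young bladders Rgs16 spanned 1.61 to 3.93 CPM. In D + Q-treated bladders the difference from middle-aged was also 0.70 but with a standard error of 0.24 (edgeR adjusted p = 0.0774), with bladders from 1.55 to 4.33 CPM. In water-treated and vehicle-treated bladders it was 0.46 and 0.41 (edgeR adjusted p of 0.0901 and 0.174). Rgs16 overlaps Gm28513, and Rgs3 overlaps Gm11209, on the other strand, and whether reads were counted by strand is not given in the sources used here.

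Rgs4, an R4 member of neurons and muscle, was 13.5, 9.41, 11.5, 15.7 and 12.0 CPM in middle-aged bladders. It rose in D + Q-treated bladders, whose lowest, median and highest levels were 15.8, 16.1 and 22.6 CPM, all above the middle-aged range. The difference was 0.50 on the log2 scale (SE 0.13, edgeR adjusted p = 0.0189), and the call was lost without middle-aged bladder 3 (adjusted p = 0.0532) or 5 (adjusted p = 0.0513). In untreated old bladders Rgs4 spanned 12.4 to 21.3 CPM and differed by 0.40 (SE 0.14, edgeR adjusted p = 0.0616). Young bladders, at 13.1 to 18.5 CPM, overlapped both. In water-treated and vehicle-treated bladders Rgs4 differed from middle-aged by 0.33 and 0.38 (edgeR adjusted p of 0.24 and 0.207). D + Q-treated bladders differed by 0.12 from untreated old, 0.13 from vehicle-treated and 0.18 from water-treated bladders (edgeR adjusted p of 0.697, 0.994 and 0.814).

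Rgs3, Rgs5 and Rgs18 did not pass the test in untreated old against middle-aged bladders. Rgs5 averaged 360 ± 13.8 CPM in middle-aged (SD, n = 5) and 351 ± 35.1 CPM in untreated old bladders (n = 6), a difference of -0.01 on the log2 scale (95% interval -0.16 to 0.13, edgeR adjusted p = 0.92). Rgs3 differed by 0.03 (95% interval -0.07 to 0.125, edgeR adjusted p = 0.704). Rgs18 differed by 0.26 (SE 0.16, edgeR adjusted p = 0.26). In water-treated, vehicle-treated and D + Q-treated bladders Rgs5 differed from middle-aged by -0.10, -0.17 and -0.08 (edgeR adjusted p of 0.195, 0.116 and 0.543).

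**Figure D2:**
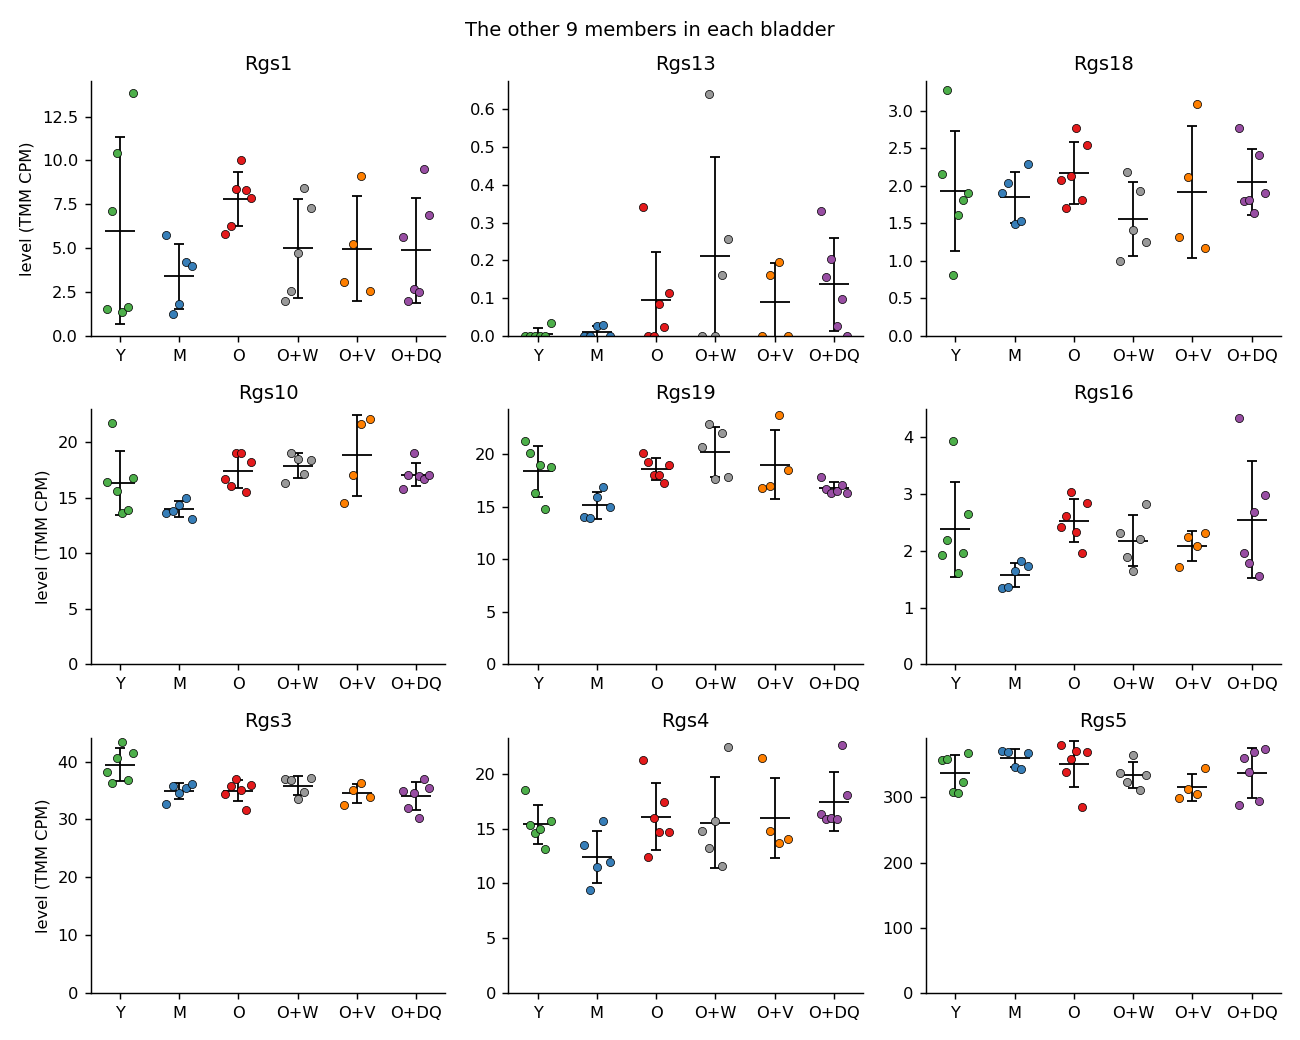
Levels of the other 9 members in TMM-scaled CPM (vertical axes, each from 0) in each bladder of the young (Y), middle-aged (M), untreated old (O), water-treated (O+W), vehicle-treated (O+V) and D + Q-treated old (O+DQ) groups; points are bladders, horizontal marks means and bars the SD. For Rgs10, Rgs16 and Rgs19 the O points all lie above the M points, while the Y points reach into the O range.

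Counted over the family, 8 of the 9 other members passed the filter on low counts in the untreated old to middle-aged comparison, where 4 were higher (Rgs1, Rgs10, Rgs16, Rgs19) and none lower by edgeR. In the same comparison 24.0% of 17156 genes were called, 13.0% higher and 11.0% lower, and the groups did not overlap for 15.8%. The median log2 difference of the 8 was 0.33, against -0.0047 over all genes tested. Since Rgs2 was picked on this contrast, nothing is read from the count. In water-treated against middle-aged bladders, 3 of 9 tested members were called, Rgs2 lower and Rgs10 and Rgs19 higher, where 13.3% of all genes were called and 11.3% did not overlap. In vehicle-treated bladders Rgs2 alone of the 9 was called, where 4.54% of genes were called and 8.78% did not overlap. In D + Q-treated bladders Rgs4 and Rgs10 were called, 2 of 9, where 12.1% of genes were called and 8.87% did not overlap. All 4 comparisons share the middle-aged bladders, so their values stand side by side and are not independent of each other. The middle-aged bladders were also part of the contrast that picked Rgs2. Its calls in the gavaged groups are therefore not read against the shares of all genes.

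**Figure D3:**
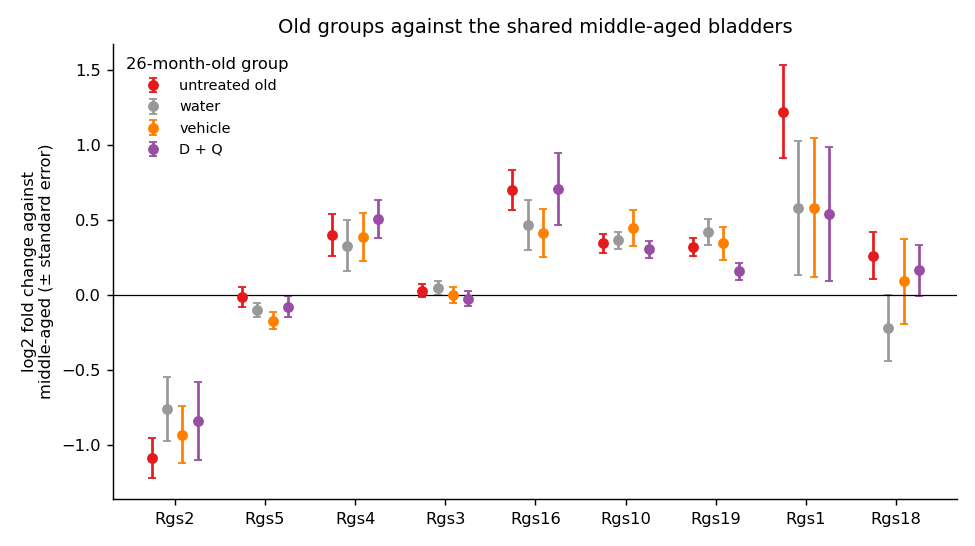
Log2 fold change of the 9 tested members in each old group minus the same 5 middle-aged bladders (vertical axis); points are edgeR estimates and bars their standard errors. Rgs2 lies below 0 in all 4 old groups, at -1.09, -0.76, -0.93 and -0.84. Rgs3 lies close to 0, and Rgs5 is at -0.01, -0.10, -0.17 and -0.08 in the same order.

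Between middle-aged and young bladders, edgeR called 0 of the 8 members tested other than Rgs2, where 10.8% of 16754 genes were called. At an unadjusted p under 0.05 there were 5 (27.2% of all genes), namely Rgs3, Rgs4, Rgs10, Rgs16 and Rgs19, each lower in middle-aged bladders, and DESeq2 called 3 (Rgs3, Rgs16, Rgs19). Rgs3 came closest, with young bladders at 36.2 to 43.4 CPM all above the middle-aged range of 32.6 to 36.1 CPM, where 7.07% of genes did not overlap. Its difference was -0.19 (SE 0.06, edgeR adjusted p = 0.0507). Of these 5 genes, Rgs10, Rgs16 and Rgs19 are among those that were higher in untreated old bladders, and their middle-aged means were the lowest of the 6 groups. For Rgs2 the middle-aged minus young difference was -0.0049 on the log2 scale, a value the pick itself used.

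Among old groups, edgeR called 0 of the 9 tested members in each of 5 comparisons, and so did DESeq2. Against untreated old bladders, 1.0% of all genes were called after water, 0.0% after vehicle and 0.0% after D + Q. D + Q against vehicle gave 0.0% and D + Q against water 0.0%. At an unadjusted p under 0.05 there was 1 member after water against no treatment (Rgs18, with a log2 difference of -0.48 and an edgeR adjusted p of 0.281), 1 after D + Q against no treatment and 1 after D + Q against water (Rgs19 in both), and 0 for vehicle against no treatment and D + Q against vehicle. The shares of all genes at that unadjusted p were 16.0%, 12.9%, 7.82%, 8.39% and 4.18% in the same order.

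Other genes of the family were called in both directions. The table holds 14 more genes of the family or its binding proteins, and 12 had enough counts in untreated old against middle-aged bladders. Of these, 1 was higher and 3 were lower, where 24.0% of all genes were called. In a fit of all 6 groups 1 gene of the list was called. Rgs14, a scaffold with an RGS domain that is known from brain and lymphoid cells, rose from 2.75 ± 0.36 CPM (SD, n = 5) to 6.83 ± 1.14 CPM (n = 6), a log2 difference of 1.34 (SE 0.13, edgeR adjusted p = 2.19e-05). Rgs22 fell by 0.41, Rgsl1 by 0.59 and Rgs7bp, which anchors R7 proteins at the membrane, by 0.28 (edgeR adjusted p of 0.0134, 0.0148 and 0.0467).

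**Figure D4:**
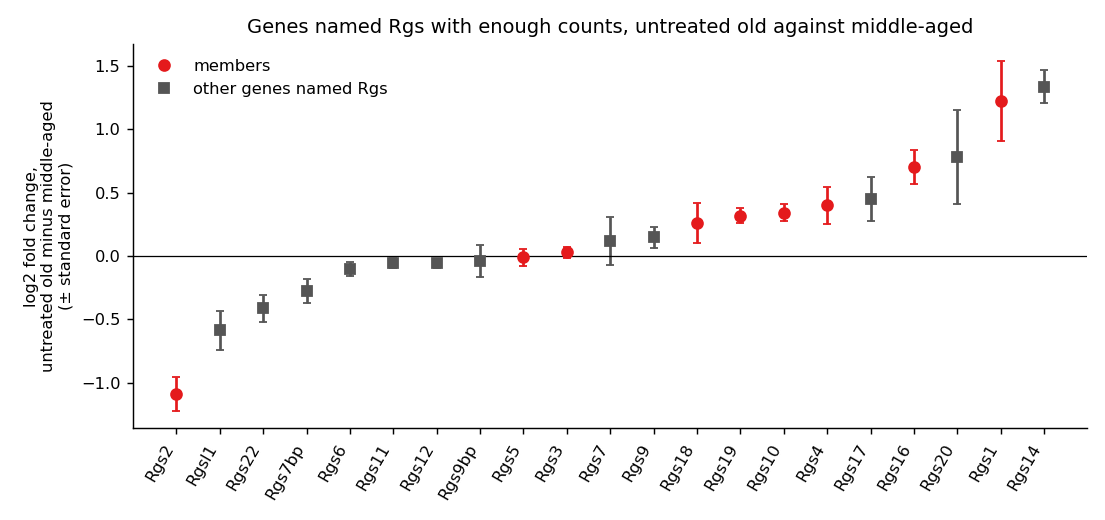
Log2 fold change of 21 genes of the RGS family and its binding proteins in untreated old minus middle-aged bladders (vertical axis), ordered by size; circles are the 9 members with enough counts, squares the other genes, and bars standard errors. Rgs2 is the lowest at -1.09, the value by which it was picked, and Rgs14 the highest at 1.34.

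The genes that act around RGS2 moved in both directions. In untreated old against middle-aged bladders, 24.0% of all genes were called by edgeR, 13.0% higher and 11.0% lower. Of 13 alpha subunits, 1 rose and 3 fell in that comparison, and 2 were called in a fit of all 6 groups. Gna11, a Gq class subunit and target of RGS2, fell by 0.12, and Gna13 rose by 0.13 (adjusted p of 0.0257 and 0.0149). Gnaz and Gnao1 fell by 0.39 and 0.24. Of 15 beta and gamma subunits, 3 rose and 4 fell, with Gnb3 (2.25) and Gng2 (0.56) the largest rises and Gng8 (-0.71) the largest fall on the log2 scale. Gnb3 was low and varied, at 0.419 ± 0.078 CPM in middle-aged (SD, n = 5) and 2.00 ± 1.61 CPM in untreated old bladders (n = 6). Its groups overlapped, and the standard error of its difference was 0.60.

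Of 24 tested Gq-coupled receptors of contractile tissue, Htr2a and Ptgfr, the prostaglandin F receptor, rose by 0.52 and 0.33 and Agtr1b fell by 0.60 (edgeR adjusted p of 0.0453, 0.0348 and 0.0226). No muscarinic receptor of the list passed, where Chrm1 and Chrm5 were low in middle-aged bladders (0.246 and 0.143 CPM) and Chrm3 averaged 31.6 CPM. Of these 3 calls, 0 were left without middle-aged bladder 5 and in a fit of all 6 groups, and 1 receptor was called without middle-aged bladder 1 or 2 or untreated old bladder 3. Among 17 effectors, 3 rose and 5 fell, where, as for the receptors, 24.0% of all genes were called. That total of 8 was 5 without middle-aged bladder 3 or 5, and 4 without untreated old bladder 2, 3 or 6 or in a fit of all 6 groups. The inositol trisphosphate receptor Itpr2 rose by 0.35 and Itpr1 fell by 0.17, while the phospholipases Plcb2 and Plcb4 differed by 0.49 and -0.21 (edgeR adjusted p of 0.000119, 0.0309, 0.00864 and 0.00105). Means in young, middle-aged and untreated old bladders were 22.5, 24.0 and 30.0 CPM for Itpr2 and 322, 367 and 322 CPM for Itpr1. They were 9.91, 8.21 and 11.4 CPM for Plcb2 and 419, 454 and 387 CPM for Plcb4.

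In the cGMP and cAMP pathway, 1 of 20 genes rose and 5 fell, a total of 6 that was 3 in a fit of all 6 groups. The subunits of soluble guanylate cyclase, Gucy1a1 and Gucy1b1, fell by 0.30 and 0.19 (edgeR adjusted p of 0.00283 and 0.00866). Pde5a, which breaks down cGMP, fell by 0.26 (edgeR adjusted p = 0.0184). Of 7 receptor kinases and arrestins, 3 rose, namely Arrb2 by 0.50, Grk6 by 0.41 and Grk2 by 0.25, and none fell. The share of all genes called, 24.0%, lies beside each of these counts. Smooth muscle markers, of which 4 of 10 were lower and 0 higher, summed to 28470 to 39730 TPM in middle-aged and 27710 to 34050 TPM in untreated old bladders. Also lower were 4 of 8 urothelial markers, 3 of 5 tested markers of neurons and glia and 1 of 7 fibroblast markers, with 0 higher. Of 7 endothelial markers, 2 were lower and 1 higher, where 11.0% of all genes were lower. The part of these cell types in the level of Rgs2 was not tested.

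Rgs2 also varied between bladders of the same group. Its pooled standard deviation within groups was 0.46 on the log2 scale, more than for 96.3% of 18117 genes, and of the 9 members measured this way Rgs1 had more (0.86). In the young group bladder 3 stood at 180 CPM and bladder 5 at 424 CPM. In the D + Q-treated group bladder 1 stood at 80.2 CPM and bladder 3 at 273 CPM.

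Genes whose levels followed Rgs2 were ranked by Pearson correlation over the 32 bladders, which share their group structure and scaling, as a description. Over all bladders the 4 most alike were Zfp395, a zinc finger gene (r = 0.893), Sema4c (0.857), the RNA-binding gene Rbm24 (0.854) and the potassium channel gene Kcnh2 (0.852). After subtraction of each group's mean they were Pdcd4, an inhibitor of translation (0.872), Zfp395 (0.805), Ypel2 (0.779), the pro-apoptotic gene Bmf (0.776) and the ubiquitin ligase gene Mylip (0.771). Zfp395 is in both lists. Its mean was 68.8 CPM in middle-aged and 52.0 CPM in untreated old bladders, which is given with no test because the gene was chosen for its likeness to Rgs2 over these bladders.

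Within groups the most opposite gene of all was Thbs1, which encodes thrombospondin 1 (r = -0.928), named after its values were seen. Young bladder 3, with the lowest Rgs2 of its group, held 381 CPM of Thbs1 against 83.5 to 159 CPM in the other young bladders. D + Q-treated bladder 1, with the lowest Rgs2 of all, held 344 CPM. Among the members, Rgs16 ran most opposite to Rgs2 within groups (r = -0.581) and Rgs5 most alike (0.308).

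**Figure D5:**
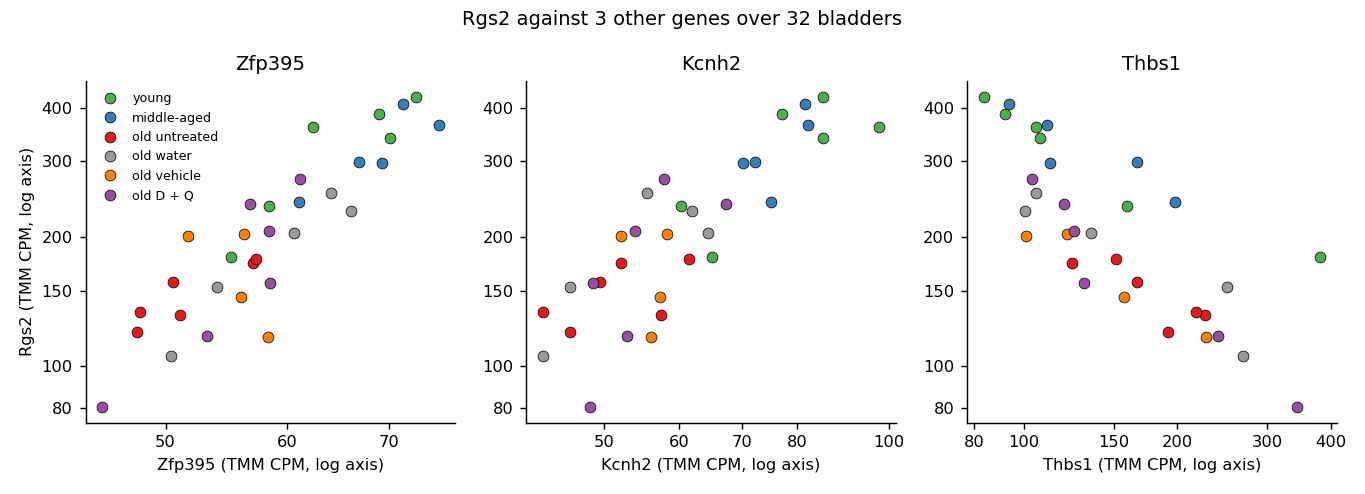
Level of Rgs2 (vertical axis, log scale) against Zfp395, Kcnh2 and Thbs1 (horizontal axes, log scale), all in TMM-scaled CPM, in 32 bladders coloured by group. Rgs2 runs with Zfp395 (r = 0.893) and Kcnh2 (0.852) over all bladders, and against Thbs1 within groups (r = -0.928).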

How the data were processed

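RNA sequencing of 32 bladders in 6 groups, grouped as labelled, was analysed. The authors aligned reads to mm10 with STAR 2.7.3 and counted them per gene with featureCounts of Subread, and the deposited counts carry no normalization. The other deposited unit used is each gene's exon length in bases. Their log2 table of normalized expression was not used. Strandedness of counting is not given in the sources used here. Symbols came from GENCODE vM21 (32158 of 32285 genes).

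The 10 comparisons were fitted in edgeR 4.0.16 (R 4.3.3) by the quasi-likelihood test after TMM scaling and filterByExpr, each on the bladders of its 2 groups, with Benjamini-Hochberg adjusted p under 0.05 over all genes. Intervals are the estimate ± the t quantile at edgeR's degrees of freedom times the standard error. Correlations used log2(CPM + 0.5). Named were the members, the 5 genes most alike Rgs2 in each ranking (1 is not reported here), and up to 3 called genes per direction in each of 7 pathway lists. Members and lists were chosen with earlier results of these data known. The fits were tested on simulated data. Alternatives were DESeq2 1.42.0, RLE factors, no filter, a minimum of 10 counts in each bladder, 1 fit over all 6 groups, a replicate block, and leaving out bladders in turn. A gene was taken as detected above 3 counts. Plots were drawn with matplotlib 3.10.9 under Python 3.11.15.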

Additional observations from a re-analysis of the deposited data

Results flagged for a closer look

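Of 58 sets of a member's levels in a group of 4 to 6 bladders, 3 held a bladder far from the others by Dixon's criterion, and chance alone marks about 1 set in 20. Rgs4 stood at 21.5 CPM in vehicle-treated bladder 1, against 13.7 to 14.8 CPM in the other vehicle-treated bladders. It stood at 22.6 CPM in D + Q-treated bladder 5, against 15.8 to 18.1 CPM in the others, and without that bladder Rgs4 was still higher in D + Q-treated than in middle-aged bladders (log2 difference 0.42, edgeR adjusted p = 0.0308). Rgs13 stood at 0.341 CPM, or 11 counts, in untreated old bladder 1, against 0 to 0.114 CPM in the others.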

How the results depend on the processing

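Counts of called members were 0 under every alternative in the 5 comparisons among old groups and moved in others. Between middle-aged and young bladders 0 became 3 with DESeq2, 1 with RLE factors, 1 with at least 10 counts in every bladder and 2 with all 6 groups in 1 fit, and 0 to 2 without 1 bladder. Against middle-aged bladders, the 1 member called in vehicle-treated bladders became 3 with DESeq2 and 3 with all 6 groups in 1 fit (0 to 2 without 1 bladder), and the 2 in D + Q-treated bladders became 5 with DESeq2 (1 to 4 without 1 bladder). Without 1 bladder, 4 to 5 were called in untreated old and 2 to 3 in water-treated bladders. For Rgs2 in D + Q-treated against middle-aged bladders, adjusted p was 0.0349 with DESeq2, 0.0413 without a filter, 0.0462 with at least 10 counts and 0.0428 with all 6 groups. Its difference between D + Q-treated and vehicle-treated bladders spanned -0.05546 to 0.2524 without 1 bladder, and that from water-treated bladders -0.2386 to 0.07708. In these comparisons the cause was not tested. Bladders with the same title number did not deviate together (correlations of -0.31 to 0.18 over 48 pairs, 6 of them over 0.1). For some middle-aged, vehicle-treated and water-treated bladders, the number in the sample title differs from that in the sample description. The check and the replicate block used title numbers, so neither can decide whether bladders were paired by the other numbers. With the replicate block, Rgs2 passed in D + Q-treated against middle-aged bladders (log2 difference -0.99, adjusted p = 0.00957), its D + Q-treated minus vehicle-treated difference was -0.03285, and 5 members were called in untreated old, 3 in water-treated, 1 in vehicle-treated and 3 in D + Q-treated bladders. In a fit of all 6 groups, called genes went from 4 to 1 for the other RGS genes, 4 to 2 for alpha subunits, 3 to 0 for receptors, 8 to 4 for effectors and 6 to 3 for the cGMP and cAMP pathway; the block gave 2, 2, 0, 6 and 3, and DESeq2 called 5 receptors. Depth limits Rgs13 most, with 0 to 24 counts a bladder.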

Other observations

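After subtraction of group means, 12 immediate early genes, which respond to stimuli within minutes, all had a negative correlation with Rgs2 over the 32 bladders, with a median r of -0.518 and a range of -0.77 to -0.166. The median over 18117 genes was 0.0169. The lowest values were for Jun (-0.77), Atf3 (-0.742) and Ier3 (-0.736). In untreated old against middle-aged bladders 4 of the 12 were higher and none lower by edgeR (adjusted p under 0.05), namely Egr2, Ier3, Nr4a1 and Dusp1, where 24.0% of all genes were called and 13.0% were higher. Median r with Rgs2 within groups ran over the other marker lists from -0.263 for smooth muscle to 0.176 for plasma cells, with 0.0748 for B cells. Single genes of other lists were also strongly inverse, such as S1pr2 (-0.781) and Kdr (-0.767), or alike, such as Pdgfra (0.65). The bladders share their scaling, and the part of tissue makeup in these values was not tested.

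Ccn2, which encodes connective tissue growth factor and was named after its values were seen, also ran opposite to Rgs2 (r = -0.855 over all bladders and -0.901 within groups). It stood at 235 CPM in young bladder 3 and at 15.3 to 37.7 CPM in the other young bladders.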
